A study of Homo sapiens with 4 samples.

Results

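DHRS2, ABAT, GATM and CKB encode metabolic enzymes, and they were taken as a group because the first 3 carry some of the largest rises with romidepsin on these arrays. They are 4 of the 19775 genes that the platform's annotation ties to a probe set of their own, and every probe set that names 1 of them alone was used, 14 in all. DHRS2, ABAT and GATM were chosen by their values of romidepsin over untreated cells, so that comparison is a description here. They also had to pass 2-fold in romidepsin plus tamoxifen over tamoxifen. Panc1, an established human pancreatic cancer cell line, was left untreated or was kept for 24 hours in romidepsin, in tamoxifen or in romidepsin plus tamoxifen, and each of these 4 conditions was measured on 1 Affymetrix array. Romidepsin inhibits histone deacetylases, which take acetyl groups off histones. Tamoxifen binds estrogen receptors and blocks or mimics the hormone, depending on the tissue. All 4 cultures were grown in serum-containing medium, and no solvent control is named in the labels. Doses are not given in the labels used here. There were no replicates, so no test between conditions was possible and no value carries an error between cultures.

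DHRS2 is a short-chain dehydrogenase/reductase, a family of NAD- or NADP-dependent enzymes that act on carbonyls, steroids and retinoids, and it is known as a gene that histone deacetylase inhibitors switch on. ABAT is the mitochondrial transaminase that starts the breakdown of GABA, after which ALDH5A1 oxidises the product to succinate. GATM makes guanidinoacetate from arginine and glycine in mitochondria, the first and regulated step of creatine synthesis, GAMT methylates it to creatine, and the cytosolic kinase CKB then stores energy from ATP as phosphocreatine. In cells, the last 2 members thus belong to the same pathway, while DHRS2 and ABAT each belong to another.

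The sequences before the transcription start are shown because DHRS2, ABAT and GATM were raised on the same arrays and the letters before their starts differ. They are the 250 bases upstream of a RefSeq start on GRCh38.p14, read 5′ to 3′ on the gene's strand, and all 4 genes had an entry. Capitals mark matches on either strand to the GC box, the CCAAT box and the TATA box. The GC box was searched as GGGCGG. The TATA box was searched as TATAAA, and the CCAAT box by the letters of its name.
DHRS2: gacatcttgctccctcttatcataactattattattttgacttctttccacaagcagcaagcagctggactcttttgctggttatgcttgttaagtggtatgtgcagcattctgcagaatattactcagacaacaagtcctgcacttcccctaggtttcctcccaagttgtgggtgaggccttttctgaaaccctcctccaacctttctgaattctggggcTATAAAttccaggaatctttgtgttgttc
ABAT: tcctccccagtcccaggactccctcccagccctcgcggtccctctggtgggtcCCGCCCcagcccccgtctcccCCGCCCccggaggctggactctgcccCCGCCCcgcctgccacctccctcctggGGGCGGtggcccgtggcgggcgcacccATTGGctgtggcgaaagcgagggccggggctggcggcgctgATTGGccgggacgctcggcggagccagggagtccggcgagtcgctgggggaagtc
GATM: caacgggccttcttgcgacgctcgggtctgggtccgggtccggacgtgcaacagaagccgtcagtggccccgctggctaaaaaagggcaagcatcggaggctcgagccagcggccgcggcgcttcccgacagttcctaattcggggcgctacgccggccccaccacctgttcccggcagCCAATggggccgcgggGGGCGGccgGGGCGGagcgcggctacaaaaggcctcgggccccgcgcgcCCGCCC
CKB: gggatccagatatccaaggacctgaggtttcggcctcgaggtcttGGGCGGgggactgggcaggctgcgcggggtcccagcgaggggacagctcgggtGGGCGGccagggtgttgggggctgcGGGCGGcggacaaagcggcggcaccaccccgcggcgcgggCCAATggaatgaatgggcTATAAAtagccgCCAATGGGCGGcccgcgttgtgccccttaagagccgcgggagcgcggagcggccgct
The windows are chr14:23629865-23630114 on the plus strand for DHRS2, chr16:8674367-8674616 on the plus strand for ABAT, chr15:45378545-45378794 on the minus strand for GATM and chr14:103522831-103523080 on the minus strand for CKB.

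The DHRS2 window holds a TATA box from 29 to 24 bases before the start, no GC box and no CCAAT box. It has 0 CG dinucleotides and 43.2% G and C. Over the 35093 windows of all genes the median is 11 CG dinucleotides, and 6.06% of windows have as few as DHRS2. The windows printed for the other genes have more CG dinucleotides than the median of 11, and each holds GC boxes. That of ABAT has 24 CG dinucleotides, 4 GC boxes and 2 CCAAT boxes. That of GATM has 33 CG dinucleotides, 3 GC boxes and 1 CCAAT box, and that of CKB has 27 CG dinucleotides, 4 GC boxes, 2 CCAAT boxes and a TATA box from 69 to 64 bases before the start. Of all windows, 42.6% hold a GC box, 32% a CCAAT box and 10.7% a TATA box, so none of these matches is rare. The AP-1 motif TGACTCA, the E-box CACGTG and the CRE motif TGACGTCA were searched too, on both strands, and are not in the letters of these 4 windows; 4.2%, 6.34% and 1.65% of all windows hold them. No motif searched overlapped another in these windows. ABAT has 3 further windows, for starts downstream of the first within the gene, with 12, 13 and 1 CG dinucleotides, and 2 of these overlap. The GATM window belongs to a start that lies 23683 bases inside the gene's annotated span, and a start at the outer end has no window here. Which start the RNA came from was not measured, and a match in a window is not evidence that a factor binds there.

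Signals are MAS5 values, an intensity on a linear scale made by the authors for each probe set, and values below 66.4, which is the median signal over the non-control probe sets of all arrays, were treated as lying on a floor with no order among them. The words rose and fell are kept for differences of 2-fold or more between a pair of arrays, and a fold against a signal on the floor is given as a lower bound. Among all genes measured, 14.3% rose and 9.27% fell with romidepsin. With arrays divided by their medians, rises made up 47.4% of the romidepsin calls against 60.7% as deposited, and 48% of the tamoxifen calls against 77.5%. The median log2 fold of all genes then moved from 0.06 to -0.11 for romidepsin and from 0.01 to -0.12 for tamoxifen, and with spike-in scaling it was 0.33 for tamoxifen. Of the 14 probe sets of the members, 8 exceeded the floor on at least 1 array.

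The arrays had been scaled to a common level. Their trimmed means were all 499.9 and their medians lay between 59.7 and 73.2. The 3′ to 5′ ratio of the actin control, which rises as RNA degrades, was between 1.18 and 1.73, highest on the combination array. Hybridization spike-in controls stood at 0.78 to 1.01 times their untreated level, lowest with tamoxifen. Of the epithelial and ductal markers KRT7, KRT8 and KRT18 were above the floor in untreated cells, EPCAM came above it with drug, and KRT19 was at the floor on all 4 arrays. Their summed signal fell from 35367 in untreated cells to 16180 with the combination. None of the 3 leukocyte markers with a probe set was above the floor on any array. In the acinar, islet and endothelial lists the summed signal did not exceed 249 on any array. COL1A1 and DCN of the fibroblast list were above the floor on all 4 arrays, with sums between 6491 and 9944, highest with romidepsin. The part of these differences in the results was not tested. With bulk RNA, more expressing cells and more RNA per cell cannot be told apart.

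DHRS2 gave a low signal in untreated and tamoxifen-treated cells and a high one on both arrays with romidepsin. Its brighter probe set stood at 346 in untreated cells, 23549 with romidepsin, 504 with tamoxifen and 25122 with the combination. The other stood at 185, 12766, 219 and 12698 in the same order. Both readings put the romidepsin and combination arrays far above the other pair, with no overlap, and both were above the floor throughout. The rise with romidepsin was 68.0-fold by the first probe set and 69.1-fold by the second. DHRS2 ranked 1 of 13619 genes for this fold.

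ABAT was near the floor in untreated cells, came up some way with tamoxifen and far with romidepsin. Its brightest probe set gave 115 in untreated cells, 5066 with romidepsin, 280 with tamoxifen and 5660 with the combination, a 43.9-fold rise with romidepsin that ranked 2 of 13619. The second probe set gave 59.3, 2175, 141 and 3463, and the third 58.4, 425, 135 and 481. All 3 put the arrays in the same order, but they differed in the size of the rise, which was at least 32.8-fold for the second and at least 6.41-fold for the third. The third probe set thus gave a log2 fold of at least 2.68 where the first gave 5.46. Over 3199 genes with a pair of probe sets above the floor on both arrays, the median difference between their log2 folds was 0.28, and in 90% of genes it was below 0.88.

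GATM was close to undetected without romidepsin. Its brightest probe set gave 73.0 in untreated cells, 2360 with romidepsin, 92.4 with tamoxifen and 2390 with the combination, 32.3-fold up with romidepsin and ranked 6 of 13619. The second, which derives from the RefSeq transcript NM_001482, gave 32.2, 1602, 36.3 and 1680, a rise of at least 24.1-fold from the floor. Both place untreated and tamoxifen-treated cells at or next to the floor, so the folds rest on where the floor is set. The other 6 probe sets annotated to GATM were below the floor on every array, between 0.634 and 57.5, and none of them followed the rise.

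CKB did not share this pattern, and the label of a strongly induced gene does not hold for it. Its only probe set gave 5915 in untreated cells, 10827 with romidepsin, 3742 with tamoxifen and 5372 with the combination. The kinase RNA was thus well detected without drug and 1.83-fold higher with romidepsin, short of the 2-fold mark. CKB ranked 2363 of 13619, where 17.4% of genes had a fold as large or larger. The combination array read 1.10-fold lower than the untreated one, and 1.11-fold higher with spike-in scaling. Of the 4 members, 3 therefore rose with romidepsin, beside 14.3% of all genes. Since those 3 were chosen on this comparison, nothing is read from that count.

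**Figure D1:**
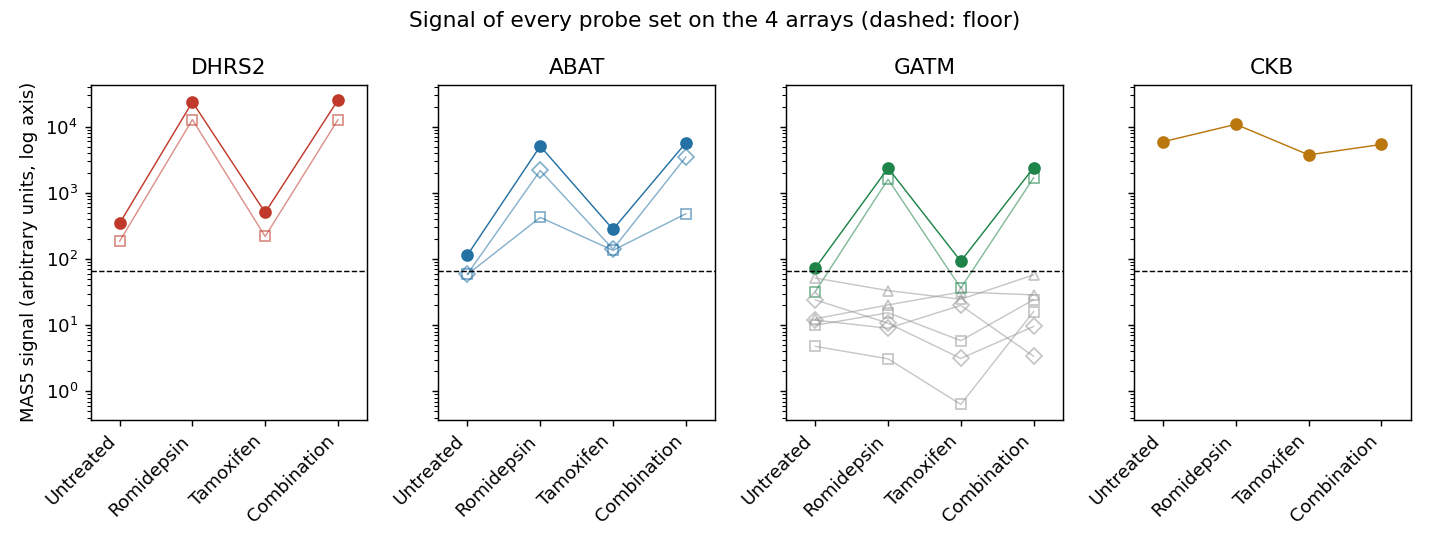
MAS5 signal (log axis, arbitrary units) of each probe set of the 4 genes on the 4 arrays; filled circles mark the probe set that stands for the gene, open symbols the others, grey those below the floor on every array, and the dashed line the floor at 66.4. DHRS2 moves from 346 to 23549 with romidepsin while CKB moves from 5915 to 10827, and 6 GATM probe sets stay under the floor.

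Romidepsin was also compared on the other pair of arrays, the combination over tamoxifen alone, which shares no array with romidepsin over untreated cells. DHRS2, ABAT and GATM were again far higher. DHRS2 was 49.8-fold higher, ranking 6 of 13893 genes, GATM 25.9-fold higher at rank 19, and ABAT 20.2-fold higher at rank 31. In this comparison 14.8% of all genes rose and 11.8% fell. The second probe sets gave 58.0-fold for DHRS2, at least 25.3-fold for GATM and 24.6-fold for ABAT, and the third ABAT probe set 3.57-fold. CKB was 1.44-fold higher and did not pass 2-fold, as on the first pair of arrays. The earlier selection of named romidepsin genes also required a change of 2-fold here, so this second comparison is not independent of the choice of DHRS2, ABAT and GATM. On the tamoxifen array, the denominator of these ratios, ABAT stood at 280 against 115 in untreated cells.

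**Figure D2:**
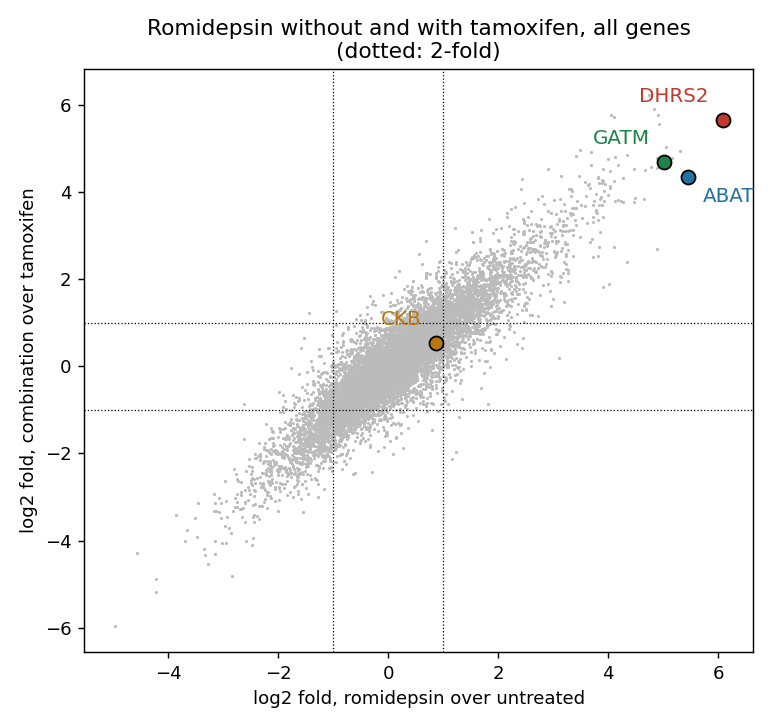
Log2 fold of romidepsin over untreated cells (horizontal) against log2 fold of the combination over tamoxifen (vertical) for every gene measured in both, with 4 genes coloured and dotted lines at 2-fold. DHRS2, ABAT and GATM lie at the upper right end, at 6.09 and 5.64, 5.46 and 4.34, and 5.02 and 4.69, while CKB lies among the bulk of genes at 0.87 and 0.52.

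With tamoxifen alone, set against untreated cells, ABAT was the 1 of the 4 genes to pass the 2-fold mark. It rose 2.42-fold by its brightest probe set, at least 2.12-fold by the second and at least 2.03-fold by the third, and ranked 156 of 13051 genes. In this comparison 3.7% of all genes rose and 1.07% fell. DHRS2 was 1.46-fold higher by the first probe set and 1.18-fold by the second, and GATM 1.27-fold higher with 73.0 and 92.4 next to the floor. CKB was 1.58-fold lower, with 93.8% of genes at or above its log2 fold of -0.66. The direction of CKB and the rise of ABAT held under each of the 3 other scalings of the arrays: the CKB value lay between -0.81 and -0.30 over the settings tried, and that of ABAT between a lower bound of 1.02 and 1.63.

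Tamoxifen on top of romidepsin left the 3 induced genes near their romidepsin level, and the CKB signal was lower. The combination over romidepsin was 1.07-fold for DHRS2, 1.12-fold for ABAT and 1.01-fold for GATM, all upward by the brightest probe sets. On the log2 scale these are 0.09, 0.16 and 0.02, smaller than the median difference of 0.25 between probe sets of 1 gene in this comparison. The second ABAT probe set was 1.59-fold higher, from 2175 to 3463, and the second DHRS2 probe set was slightly lower, from 12766 to 12698. For DHRS2 and GATM the sign turned with arrays divided by their medians, to -0.01 and -0.09. CKB fell 2.02-fold, from 10827 to 5372, where 4.07% of all genes rose and 2.27% fell. That call sits on the threshold: it was 1.91-fold with quantile normalization and 1.63-fold with spike-in scaling, both short of it. The combination array also had the highest actin 3′ to 5′ ratio, 1.73, and the part of that in the CKB value was not tested.

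Against untreated cells the combination gave 72.5-fold for DHRS2, 49.0-fold for ABAT and 32.7-fold for GATM, where 19.8% of all genes rose and 14.4% fell. This comparison shares the untreated array with both single-drug comparisons. For each gene, the log2 fold of the combination was set beside the sum of the log2 folds of both drugs. The combination fell short of that sum by 0.45 for DHRS2, 1.12 for ABAT, 0.32 for GATM and 0.35 for CKB. Over 11058 genes above the floor on all arrays the middle 50% of such differences lay between -0.30 and 0.19. Over the 65 of these genes that were at least 8-fold higher with romidepsin it lay between -0.70 and 0.10. All 4 members lay below the lower quartile of the first set. Of the 3 that were at least 8-fold higher, ABAT lay below the lower quartile of the second set, and DHRS2 and GATM within its middle range. A low untreated reading by itself makes this difference more negative, and no error can be given for it. The choice of DHRS2, ABAT and GATM by a high romidepsin fold also pulls it down, as that fold is subtracted here. The median difference was -0.04 in the first set and -0.30 in the second. Nothing is therefore read from the place of these genes below a quartile.

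The genes around DHRS2 were looked at in its enzyme family. Of 34 other short-chain dehydrogenases/reductases listed, 31 had a probe set of their own and 29 were measured with romidepsin; 5 rose, 5 fell and 19 did neither, beside 14.3% and 9.27% over all genes. The list's median log2 fold was 0.36 and that of all genes 0.06. With arrays divided by their medians 2 rose and 6 fell. None of the risers came near DHRS2. CBR4, a carbonyl reductase of mitochondrial fatty acid synthesis, rose 3.21-fold from 389 to 1247, and HSD17B12, which acts in the elongation of very long fatty acids, rose 2.97-fold from 5849 to 17355. DHRS9, a retinol and steroid dehydrogenase, went the other way and fell 8.92-fold. Its signal was 1416 in untreated cells, 159 with romidepsin, 2726 with tamoxifen and 139 with the combination, and all 3 of its probe sets had the same direction. The low readings of DHRS9 are on the arrays where DHRS2 is high. DHRSX fell 3.98-fold, from 690 to 173; its second probe set had a log2 fold of -0.40. With tamoxifen alone 0 of 28 measured relatives rose or fell by the brightest probe sets, beside 3.7% and 1.07% of all genes. Other probe sets rose with tamoxifen, 2 of 3 for DHRS9 and 1 of 3 for CBR4. With spike-in scaling, where the median log2 fold of all genes was 0.33, 5 of 28 relatives rose. In the combination over tamoxifen 5 rose and 6 fell of 29, beside 14.8% and 11.8% of all genes. DHRS4 and DHRS4L2, which lie in the same gene cluster as DHRS2, lack a probe set of their own in the platform's annotation and were not analysed here.

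No other measured gene of GABA metabolism passed 2-fold with romidepsin by its brightest probe set. Of 12 listed genes of GABA synthesis, breakdown and transport 7 were measured with romidepsin. Of these 0 rose and 0 fell, beside 14.3% and 9.27% of all genes. The list's median log2 fold was -0.05 and that of all genes 0.06. GAD1, which makes GABA from glutamate, stood at 442 in untreated cells and 259 with romidepsin, and ALDH5A1, which acts after ABAT, at 265 and 319. By the brightest probe sets no gene of the list passed 2-fold in any of the 5 comparisons. Other probe sets did, in a pair of genes named after their values were seen: for GLUL, which makes glutamine from glutamate, all 4 probe sets were higher with romidepsin, at log2 folds from 0.41 to 1.47, and 1 of them passed 2-fold. For GAD1 1 of 3 probe sets passed it in the combination over romidepsin, at 1.48, where the brightest stood at -0.05. With no floor or a floor at the 25th percentile, 1 of 10 rose with romidepsin. Of the GABA transporters, SLC6A11 and SLC6A12 were at the floor on every array, and SLC6A13 was above it with the combination only, at 86.9.

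Of 17 GABA receptor genes 7 were measured with romidepsin, and 2 rose and 0 fell, beside 14.3% and 9.27% of all genes. GABRD, a subunit of receptors outside synapses, went from 133 to 639, 4.79-fold, with 82.7 under tamoxifen and 589 with the combination. GABBR2, a subunit of the metabotropic GABA receptor, went from 77.9 to 332, 4.27-fold, with 72.6 and 315 on the other 2 arrays. Both were high where ABAT was high. All 4 GABBR2 probe sets were higher with romidepsin, at log2 folds from at least 0.68 to 2.09, and 2 of them rose. Only 1 of the 4, the brightest, was above the floor in untreated cells, so the other folds are lower bounds. The list's median depended on the floor: relative to all genes it was 0.34 as reported and -0.26 with a floor at the 25th percentile. Of 16 other aminotransferases that use the cofactor of ABAT, 12 were measured with romidepsin. Of these 1 rose and 1 fell, again beside 14.3% and 9.27% of all genes, with a median of 0.01 against 0.06 for all genes. OAT, the ornithine aminotransferase, rose 2.07-fold, a call lost with arrays divided by their medians, and BCAT1, which acts on branched-chain amino acids, fell 2.06-fold. BCAT1 rose 2.26-fold with tamoxifen alone, the only riser of 11 measured, where 3.7% of all genes rose. Of its 4 probe sets only 2 passed 2-fold, and 1 was flat at a log2 fold of 0.00.

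In the creatine pathway 1 of the 4 other measured genes, the kinase CKM, rose with romidepsin, and 0 fell, beside 14.3% and 9.27% of all genes. GAMT, the methyltransferase that finishes creatine, stood at 1220 in untreated cells, 2154 with romidepsin, 680 with tamoxifen and 1348 with the combination. It was 1.77-fold higher with romidepsin and 1.79-fold lower with tamoxifen, neither past 2-fold. Its 3 probe sets disagreed with romidepsin, with log2 folds from 0.05 to 1.04, so that 1 of them passed 2-fold, while with tamoxifen all 3 were lower. The brightest had the same order of arrays as CKB except that its combination reading was above its untreated one. SLC6A8, the creatine transporter, stood at 4168, 4032, 3265 and 3445, and its 3 probe sets had log2 folds from -0.05 to 0.63 with romidepsin. Among the other kinases CKMT2, the mitochondrial form of muscle, was at 71.1 and 113. CKM, the muscle form, was on the floor except on the romidepsin array, at 150, which makes it at least 2.26-fold higher there. With a floor at the 75th percentile 2 genes of the list were measured and 0 rose. CKMT1A and CKMT1B have no probe set of their own in the annotation used.

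GATM draws on arginine and gives off ornithine, and the list for arginine, ornithine and methyl donors had 3 risers and 0 falls of 11 measured with romidepsin, beside 14.3% and 9.27% of all genes. The list's median was 0.13 and that of all genes 0.06, and with arrays divided by their medians 2 rose. ARG2, the mitochondrial arginase, rose 17.4-fold. It stood at 69.5 in untreated cells, 1212 with romidepsin, 65.3 with tamoxifen and 1834 with the combination, the same high and low arrays as GATM. Its second probe set was on the floor in untreated cells and had a log2 fold of at least 1.87, where the brightest had 4.12. As for GATM, the untreated signal of the brightest is next to the floor. ASS1, which forms argininosuccinate for arginine synthesis, rose 2.38-fold, and OAT was the third riser, the call that is lost with arrays divided by their medians. The arginine transporter SLC7A1 was 1.63-fold lower. With tamoxifen alone 0 of 10 measured genes of this list rose or fell, beside 3.7% and 1.07% of all genes. With spike-in scaling 1 of 10 rose.

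**Figure D3:**
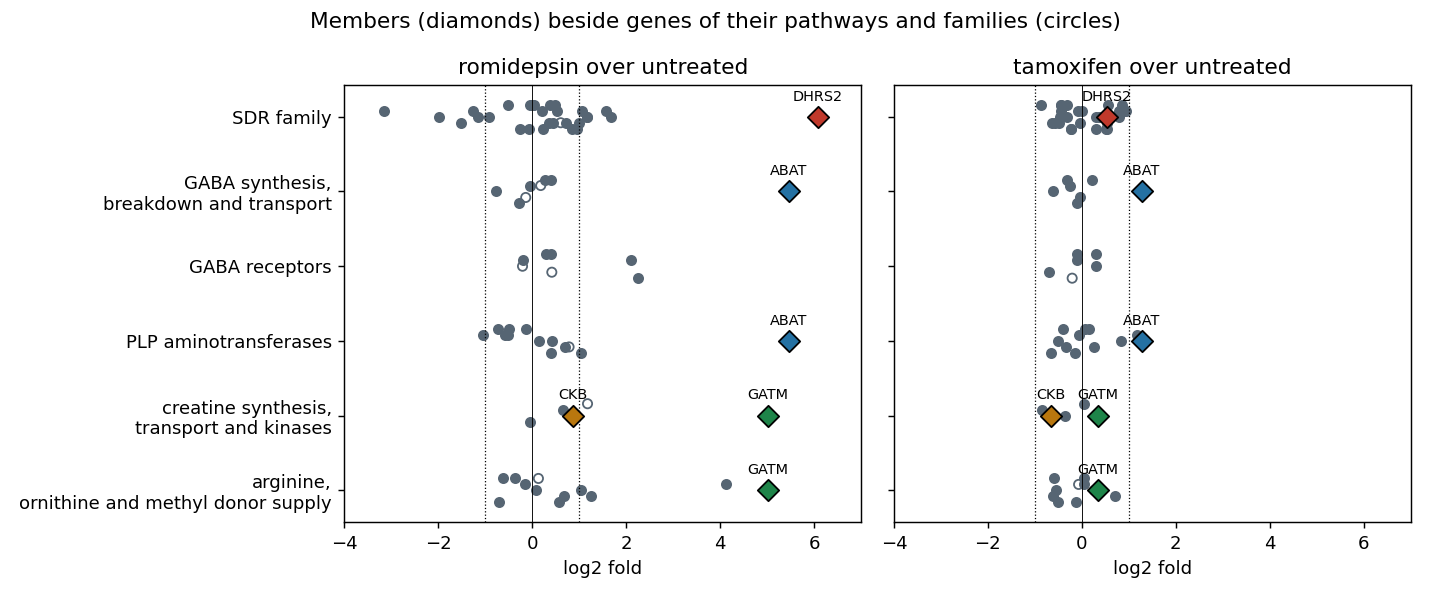
Log2 folds of the 4 genes (diamonds) and of the genes of their pathways and families (circles; open where 1 of both arrays is on the floor) for romidepsin and for tamoxifen over untreated cells, with dotted lines at 2-fold. With romidepsin the diamonds of DHRS2, ABAT and GATM lie at 6.09, 5.46 and 5.02, and the closest circle is ARG2 at 4.12.

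The genes next to the members in the genome were examined in the order of the RefSeq table, 3 with a probe set on either side of each. Before and after refer to rising chromosome coordinates. GATM and CKB are on the minus strand, so genes after them lie on their upstream side. Of these 24 neighbours 17 were measured with romidepsin, and 1 rose and 1 fell, beside 14.3% and 9.27% of all genes. Their median log2 fold was 0.37 and that of all genes 0.06. DHRS2 lies at chr14:23630115-23645639. AP1G2, 62.3 kb before it, stood at 506 untreated and 255 with romidepsin. Its log2 fold of -0.99 is next to the threshold. DHRS4-AS1, 293.1 kb after DHRS2, stood at 149 and 209. ABAT lies at chr16:8674617-8784570, with METTL22 7.3 kb before it at 1586 and 1097, and TMEM186 10.6 kb after it at 1081 and 1395. GATM lies at chr15:45361124-45402227, and AFG2B lies 0.1 kb after it, beyond the higher coordinate. AFG2B gave 3103 in untreated cells and 3684 with romidepsin. The riser was SHF, 160.0 kb before GATM, at 122 and 308, 2.51-fold. CKB lies at chr14:103519667-103522830, and TRMT61A, a tRNA methyltransferase subunit 6.4 kb after it, was the 1 neighbour that fell, from 450 to 137, 3.28-fold; another of its 3 probe sets had a log2 fold of -0.46. SLC30A4, a zinc transporter 77.4 kb after GATM, was 1.98-fold higher, from 492 to 975. With tamoxifen 0 of 16 measured neighbours passed 2-fold by the brightest probe sets, beside 3.7% of all genes that rose and 1.07% that fell. For TRMT61A 1 of 3 probe sets fell. In the combination over untreated cells 1 of 18 rose and 2 fell, beside 19.8% and 14.4% of all genes: SLC30A4 rose 3.02-fold, AP1G2 fell 2.48-fold and TRMT61A fell 2.28-fold.

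**Figure D4:**
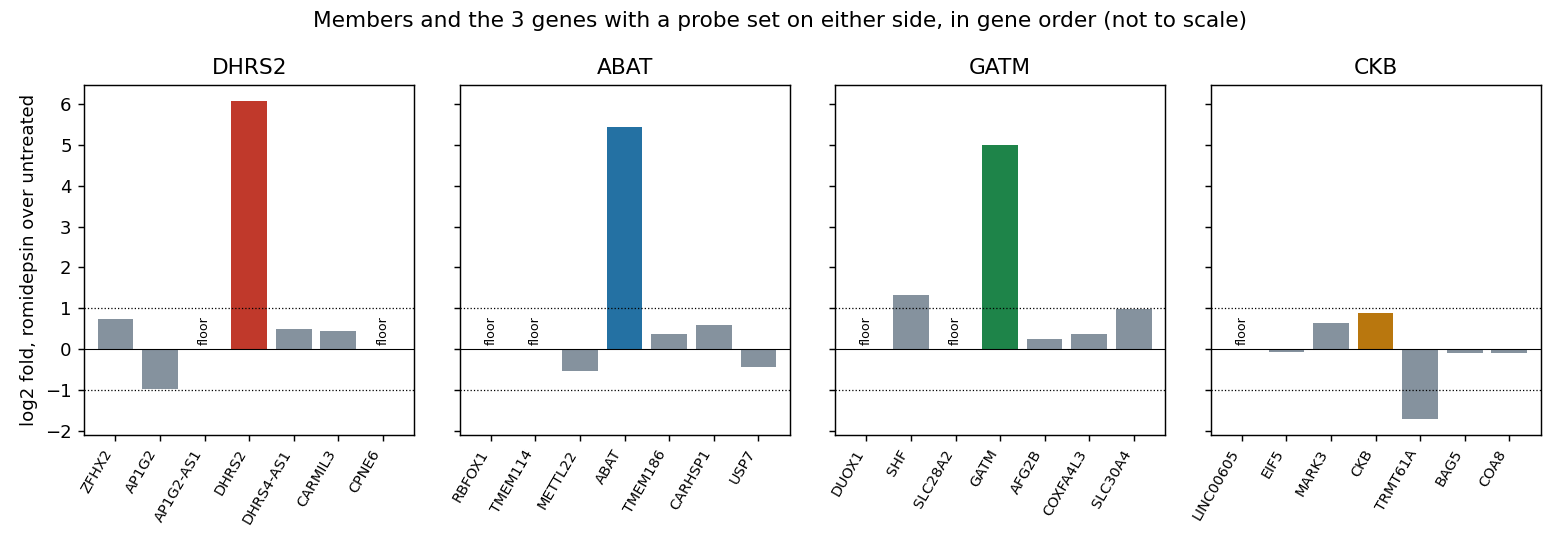
Log2 fold of romidepsin over untreated cells for each of the 4 genes (coloured) and 3 genes on either side in gene order, not to scale; "floor" marks neighbours on the floor on both arrays, and dotted lines 2-fold. Of the 17 neighbours measured SHF rose and TRMT61A fell, at 1.33 and -1.71, and the others lie within 2-fold.

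The genes whose pattern over the 4 arrays was nearest to each member were found by the root mean square difference of log2 signals, each centred on the gene's own mean, among 11058 genes above the floor on all arrays. A likeness over 4 arrays says nothing of shared function or control. The nearest gene to GATM was GPR160, an orphan receptor, at a distance of 0.19, followed by PRKAR2B, which holds protein kinase A inactive until cyclic AMP binds, at 0.27 and by DNER, a neuronal Notch ligand, at 0.30. The nearest to ABAT were GPR160 at 0.23, DNER at 0.25 and GATM at 0.34. DNER shares with ABAT an intermediate tamoxifen reading, 145 against 79.7 in untreated cells. The nearest to DHRS2 were PRKAR2B at 0.50, GATM at 0.51 and ABAT at 0.55, farther than for the others. PRKAR2B stood at 67.9 in untreated cells, 1757 with romidepsin, 66.4 with tamoxifen and 2743 with the combination. CKB was far from the other members, at 2.14 to 2.65. Its nearest genes were ZGPAT at 0.07, PPME1, a methylesterase that acts on a protein phosphatase, at 0.08 and JMJD4 at 0.10. PPME1 stood at 2639, 4469, 1773 and 2535, in the same order of arrays as CKB. The JMJD4 likeness holds for 1 probe set: of its 3 probe sets only 1 was higher with romidepsin.

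The drug targets were detected in part. HDAC1 and HDAC2 stood at 12525 and 8965 in untreated cells and 14306 and 10051 with romidepsin, and HDAC8 at 525 and 471. HDAC3 rose 2.16-fold, from 1685 to 3645, a call lost with arrays divided by their medians. The brightest of the 9 probe sets of ESR1, the estrogen receptor, was on the floor in untreated and tamoxifen-treated cells and stood at 122 and 196 with romidepsin and the combination. The others did not share this: 3 were just above the floor in untreated cells and on it with tamoxifen. Of the 4 measured with romidepsin 1 was higher, with log2 folds from -0.22 to 0.87. Each of these 4 had an array on the floor, so the values are bounds. ESR2 stood at 85.0 in untreated cells and 84.8 with tamoxifen, and GPER1 was above the floor with tamoxifen only, at 124.

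**Figure D5:**
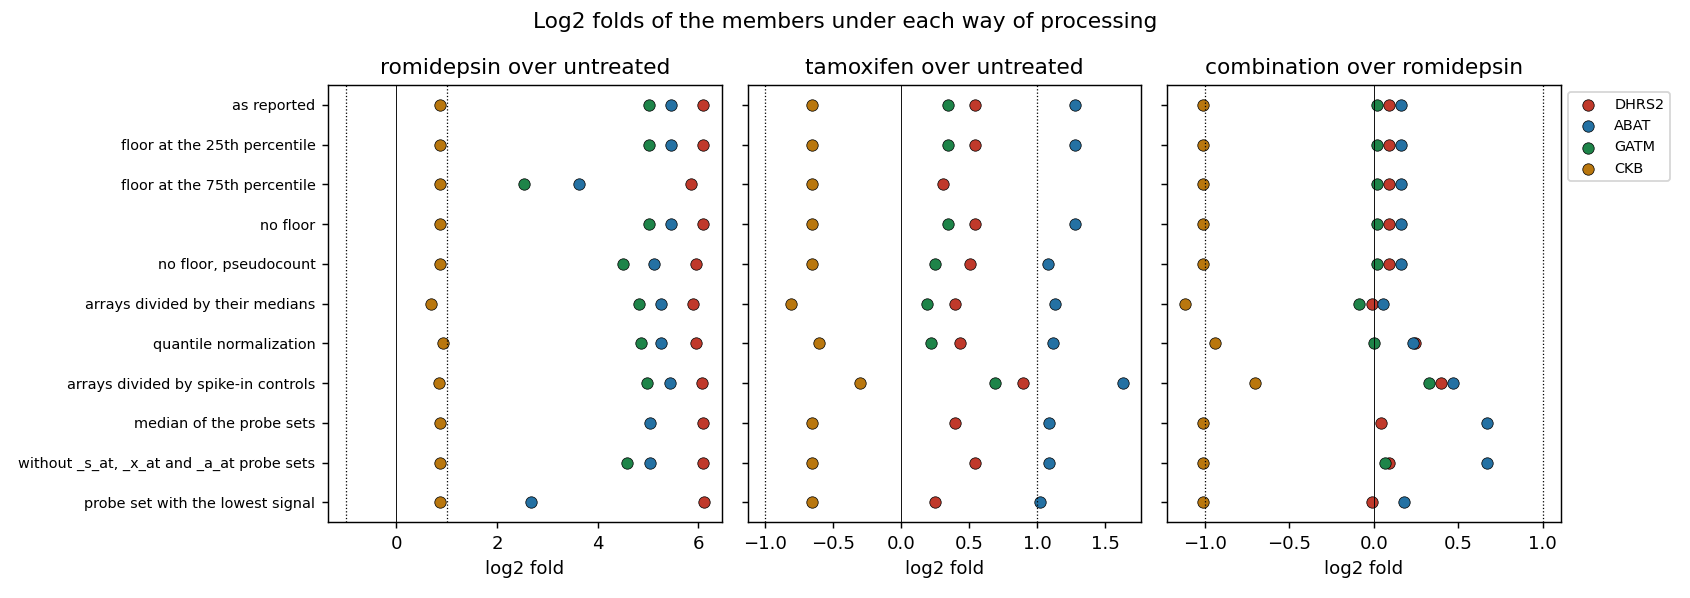
Log2 folds of the 4 genes for romidepsin over untreated cells, tamoxifen over untreated cells and the combination over romidepsin, as reported and under each alternative; dotted lines mark 2-fold, and a missing point means that the gene was on the floor on both arrays. A point with 1 array on the floor is a lower bound, and the lowest points of ABAT and GATM with romidepsin, at 2.68 and 2.53, are such bounds.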

How the data were processed

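Total RNA was hybridized after 3′ IVT labelling, per the labels' protocols. The authors deposited 1 intensity per probe set, on a linear scale; MAS5 is the tool named in the submitters' processing notes, without a version. MAS5 merges perfect-match and mismatch probes and scales each array alone. Columns of other samples numbered 0.

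Each array holds 54675 probe sets, 62 of them controls. The annotation names 1 gene for 41091 of the others, several for 1801 and none for 11721; 0 of those with several named a member. Symbols were checked by Entrez ID against RefSeq on GRCh38.p14, and 0 changed. The brightest probe set on average over the 4 arrays, in log2 signal, stood for a gene. Signals under 66.4 were set to that floor; a gene counted as measured if 1 of the 2 arrays lay above it, and as called at 2-fold. Samples were grouped by their labels. No test was made with 1 array per group, and the number of arrays limits precision. Named were the members, up to 4 genes of a list with large folds, 3 genes on either side, the 3 most alike and the drug targets. The members and lists were chosen with earlier results of these data known. Alternatives changed the floor, the array scaling and the probe set used, or added a pseudocount of 32 to the signals before taking log2. Calling was tested on simulated data. Python 3.11.15, numpy 2.4.6, pandas 2.3.3 and matplotlib 3.10.9 were used.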

Additional observations from a re-analysis of the deposited data

How the results depend on the processing

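Over 10 alternatives in 5 comparisons, 185 values of the 4 genes kept their call and 2 lost it. Both were CKB in the combination over romidepsin, with a log2 fold of -0.94 under quantile normalization and -0.70 under spike-in scaling, against -1.01. Some values could not change: the only CKB probe set lay far above each floor tried. Changes of floor or probe set therefore left CKB as it was. Where a gene was on the floor on both arrays, the alternative gave no value, as for GATM with the median of its probe sets. Some settings put the untreated signal on the floor and then give only a lower bound with romidepsin: at least 6.41-fold for ABAT with its dimmest probe set, and at least 5.78-fold for GATM and 57.7-fold for DHRS2 with a floor at the 75th percentile. The number of genes called over the whole table moved more. With a floor at the 25th percentile it was 4919 (romidepsin), 2220 (tamoxifen) and 2082 (the combination over romidepsin). With a floor at the 75th percentile it was 1632 for romidepsin, 253 for tamoxifen, 2801 comparing the combination with untreated cells, 2014 comparing it with tamoxifen and 397 with romidepsin. With no floor these counts were 6830, 4192, 8278, 7117 and 3842 in the same order. With a pseudocount it was 1042 for tamoxifen, and with spike-in scaling 1566 for tamoxifen and 1421 for the combination over romidepsin. As reported, the counts were 3216, 623, 4711, 3695 and 871. Settings for the gene lists were added after seeing the data, and 155 of 165 list medians, taken relative to all genes, moved by less than the difference between probe sets; the others were those of GABA receptors and of arginine, ornithine and methyl donors. No paired analysis was possible because each condition has 1 array and the labels carry no replicate numbers. Signals next to the floor limit the folds of ABAT, GATM and ARG2.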
